A study of Sus scrofa with 40 samples.

Results

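The difference between pigs of low and high residual feed intake (RFI) was described in backfat after caloric restriction. It compares the 5 backfat arrays of restricted low RFI pigs with the 5 of restricted high RFI pigs, which are 10 of the 40 arrays of the study, chosen by their titles. Of 23999 probe sets that are not controls, 15498 passed the filter on dim signal in backfat and were tested, and 7563 of these carried exactly 1 gene symbol (5552 symbols). All pigs were Yorkshire gilts, 6 months old, heterozygous for a variant of the melanocortin receptor gene MC4R. For 8 days the restricted pigs of both lines received 80% of the feed needed for maintenance, while the other 5 pigs of each line ate ad libitum. The backfat was the middle layer at the tenth rib, and liver of the study's pigs was profiled as well, with 5 arrays in each combination of line, diet and tissue. Each array was a single-colour Affymetrix porcine array hybridised with labelled total RNA. The labels define the lines by residual feed intake alone and name no allele that separates them. In bulk tissue, fewer cells of a type cannot be told apart from less RNA per cell.

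Residual feed intake is the feed an animal eats beyond what its growth and maintenance predict, so low RFI pigs are the efficient ones. Backfat stores energy as triglyceride, and in pigs adipose tissue is the main site of fatty acid synthesis. When feed falls below maintenance, adipocytes lower lipogenesis and release stored fatty acids, and the tissue also secretes hormones such as leptin and adiponectin that report on energy stores.

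The 10 arrays were alike in overall signal, with medians between 168 and 190 intensity units, and the number of arrays limits the precision of every value below. The adipose label fitted its markers, since ADIPOQ, FABP4 and LPL were bright on all 10 arrays. ADIPOQ, the adiponectin gene, had a mean log2 intensity of 14.62 ± 0.24 in low RFI pigs and 14.72 ± 0.19 in high RFI pigs (SD, n = 5 each). The fitted differences of FABP4, the adipocyte fatty acid carrier, and LPL, the lipase that frees fatty acids from circulating lipoproteins, were 0.04 (SE 0.10) and 0.01 (SE 0.13). All line differences below are log2 intensity in low RFI minus high RFI pigs.

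Some arrays also carried signal of other tissues. The mean log2 intensity of 31 skeletal muscle genes was 12.21, 9.43, 9.47, 10.93 and 6.31 in low RFI replicates 1 to 5, and 9.18, 6.89, 6.51, 10.72 and 6.54 in high RFI replicates 1 to 5. The lines overlapped in this mean (difference 1.70, exact permutation p = 0.222, adjusted p = 0.968 over 15 array measures, two-sided), although 4 low RFI arrays and 2 high RFI arrays lay above 9. CKM, the muscle creatine kinase, had log2 intensities of 14.22, 12.06, 12.57, 13.65 and 7.34 in low RFI pigs and 11.54, 8.55, 8.23, 13.15 and 7.55 in high RFI pigs. The mean of 7 hepatocyte genes was 13.13 in low RFI replicate 5, against 7.83 to 9.11 in the other low RFI pigs and 7.92 to 10.25 in high RFI pigs. ALB, the albumin gene, had a log2 intensity of 14.59 in low RFI replicate 5, with 6.48, 6.41, 9.29 and 6.72 in the other low RFI pigs and 6.76, 6.27, 11.32, 8.63 and 8.51 in high RFI pigs. Arrays numbered 1 and 2 also separated from those numbered 3 to 5 on the first principal component, which held 19.1% of the variance of the 20 backfat arrays with group means removed. Both sets hold pigs of both lines. The part of these patterns in the results below was not tested beyond the values given beside them. Each of the 15 array measures, among them the adipocyte, macrophage, lymphocyte and endothelial marker means, had an exact permutation p of 0.198 or more.

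**Figure D1:**
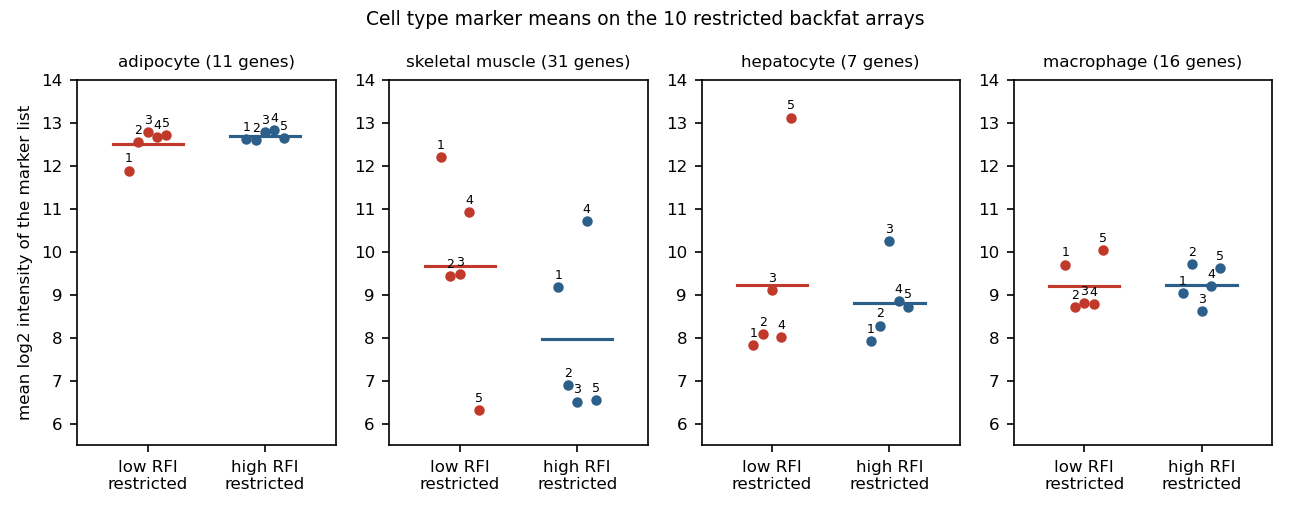
Mean log2 intensity of the adipocyte, skeletal muscle, hepatocyte and macrophage marker lists (number of genes in each title) on the 10 restricted backfat arrays, low RFI left and high RFI right. Each point is an array, labelled with its replicate number, and the bar is the line mean. Low RFI replicate 5 stands at 13.13 for hepatocyte markers, and muscle markers spread between 6.31 and 12.21 in low RFI pigs and between 6.51 and 10.72 in high RFI pigs.

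No probe set passed the test of a line difference in restricted backfat. Of 15498 tested, 0 passed an adjusted p of 0.05 (0% called; limma with Benjamini-Hochberg adjustment), and the smallest adjusted p was 0.248. At an unadjusted limma p under 0.05 there were 747 probe sets (4.82%), of which 350 (2.26%) were higher and 397 (2.56%) were lower in low RFI pigs, and these held 354 distinct gene symbols. In 100 probe sets (0.645%) the lines did not overlap, with low RFI above high RFI in 36 (0.232%) and below in 64 (0.413%). The lines differed by over 2-fold in 111 probe sets (0.716%) that were higher and 47 (0.303%) that were lower in low RFI pigs. The differences ranged between -2.44 (HGSNAT) and 3.94 (a probe set with no gene name), with a median of -0.0044. The precision was moderate, with a median SE of 0.196 and a 95% interval that reached a median of 0.408 to either side of the estimate. With the muscle marker mean as a covariate, 0 probe sets passed and 599 had an unadjusted p under 0.05 (3.87%).

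The genes described next are the 15 with the smallest p in each direction among probe sets with 1 gene symbol. They are listed as the ends of a distribution and none of them passed the threshold.

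**Figure D2:**
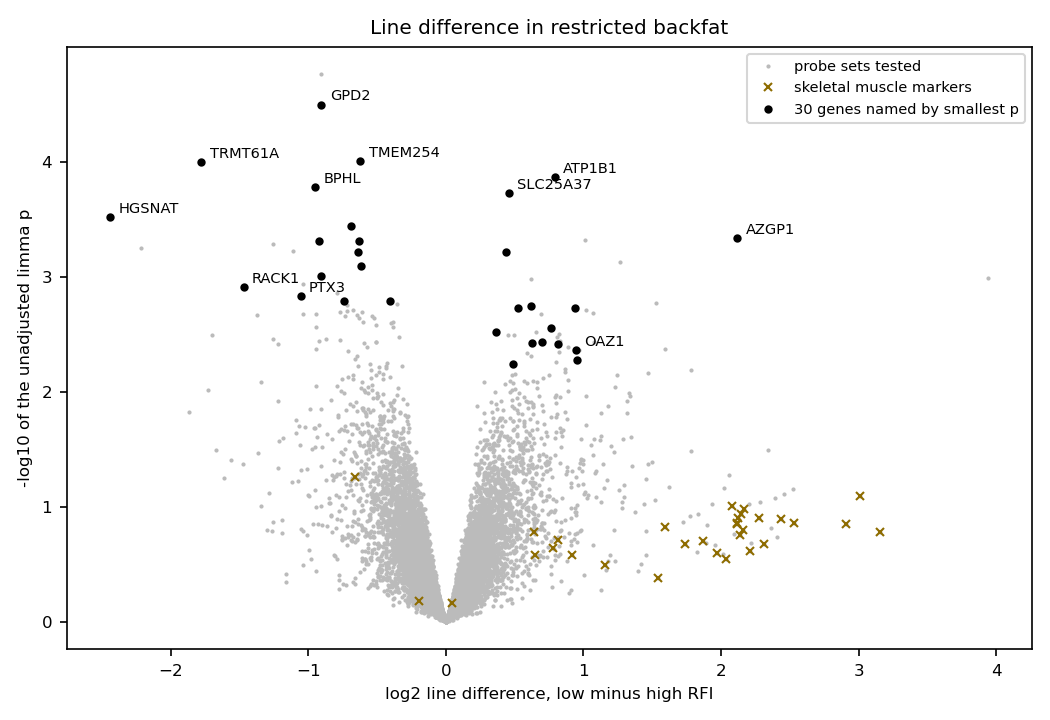
Log2 line difference (x axis, low minus high RFI) against the -log10 of the unadjusted limma p (y axis) for the 15498 probe sets tested in restricted backfat. Black points are the 30 genes named by smallest p, crosses are skeletal muscle markers and grey points are the rest. The muscle markers lie to the right with differences of up to 3.15 and small -log10 p, and no point is past an adjusted p of 0.05.

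GPD2 had the smallest p among the genes with lower means in low RFI pigs and encodes the mitochondrial glycerol-3-phosphate dehydrogenase, which passes electrons from cytosolic glycerol phosphate to the respiratory chain. Its log2 intensity was 6.25, 6.07, 6.28, 6.52 and 6.25 in low RFI pigs and 7.34, 7.53, 6.91, 7.26 and 6.85 in high RFI pigs. Every low RFI pig lay below every high RFI pig, with a difference of -0.90 (SE 0.17, limma adjusted p = 0.248). The GPD2 signal was dim, below the log2 median of its own array on every restricted array.

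MCCC2, a subunit of the carboxylase in leucine breakdown, was at 10.75, 10.98, 11.64, 11.27 and 11.11 in low RFI pigs and 11.68, 11.87, 12.03, 11.60 and 11.64 in high RFI pigs. Only low RFI replicate 3 reached into the high RFI range (difference -0.62, SE 0.16). MSRB2, which repairs oxidised methionine in mitochondria, differed by -0.90 (SE 0.24), with low RFI pigs at 7.17 to 8.12 and high RFI pigs at 8.07 to 8.82. GLO1, the glyoxalase that detoxifies methylglyoxal, differed by -0.63 (SE 0.15), and its other probe sets by -1.11 and -0.74. In GLO1 high RFI replicate 5, at 9.44, lay inside the low RFI range of 9.05 to 9.52.

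HGSNAT, among the genes with the smallest p, encodes the lysosomal acetyltransferase needed to degrade heparan sulfate. Its named probe set had log2 intensities of 6.32, 5.73, 5.91, 6.38 and 7.75 in low RFI pigs and 7.76, 9.94, 10.19, 8.39 and 7.98 in high RFI pigs. The difference of -2.44 (SE 0.56, limma adjusted p = 0.502) left the lines just apart, since low RFI replicate 5 at 7.75 and high RFI replicate 1 at 7.76 nearly met. A second probe set of HGSNAT had a difference of -0.35 (SE 0.31). PCYOX1, the prenylcysteine oxidase of lysosomes and lipoproteins, differed by -0.64 (SE 0.16) and by -0.27 and -0.23 on other probe sets. GPM6B, a membrane glycoprotein of the proteolipid family, was below in all low RFI pigs on a pair of its 3 probe sets (differences -0.69, SE 0.16, and -0.72, SE 0.20) and differed by -0.60 on the other. TMEM254, a transmembrane protein, was at 8.995, 9.47, 9.51, 9.42 and 9.24 in low RFI pigs and 9.54, 9.90, 10.06, 10.21 and 10.03 in high RFI pigs. Its lines did not overlap (difference -0.62, SE 0.13, limma adjusted p = 0.391).

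The other genes of this direction have varied roles. TRMT61A, the catalytic subunit of a tRNA methyltransferase, was at 4.86, 4.37, 5.40, 4.29 and 5.72 in low RFI pigs and 6.35, 6.42, 6.85, 6.93 and 6.98 in high RFI pigs. The lines lay apart by -1.78 (SE 0.37, limma adjusted p = 0.391), but the signal was below the log2 array medians of 7.39 to 7.57 on every array. BPHL, a serine hydrolase, differed by -0.95 (SE 0.21, lines apart) and by -0.24 on its second probe set. ADAM9, a membrane metalloprotease, differed by -0.92 (SE 0.22, lines apart) on 1 probe set and by -0.08 and -0.49 on the others. PTX3, a pentraxin of innate immunity, was at 7.05 to 7.68 in low RFI pigs and 8.10 to 9.13 in high RFI pigs (difference -1.05, SE 0.29). A second probe set of PTX3 differed by -0.53 (SE 0.32) with overlap. RACK1, a ribosome-associated scaffold, was apart by -1.47 (SE 0.39) on the named probe set. This probe set was dim, with means of 5.58 in low and 7.05 in high RFI pigs. On a far brighter probe set, with means of 14.23 and 14.07, RACK1 differed by 0.16 (SE 0.11). TAF9, a subunit of the general transcription factor TFIID, was apart by -0.40 (SE 0.11) and differed by 0.04 on another probe set. The 15th gene, LOC100512977, differed by -0.74 (SE 0.20).

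AZGP1 is among the genes with higher means in low RFI pigs and encodes a zinc-binding glycoprotein that adipocytes secrete and that stimulates lipid mobilisation. Its log2 intensity was 7.32, 7.55, 7.86, 8.16 and 6.59 in low RFI pigs and 6.33, 3.79, 6.01, 4.29 and 6.46 in high RFI pigs. All low RFI pigs lay above all high RFI pigs, by 2.12 (SE 0.51, limma adjusted p = 0.502). The lines nearly met, at 6.59 in low RFI replicate 5 and 6.46 in high RFI replicate 5. Every high RFI value was dim, below the log2 medians of 7.42 to 7.55 of those arrays, with the lowest at 3.79 and 4.29. The second probe set of AZGP1, with means of 10.72 in low and 9.52 in high RFI pigs, differed by 1.20 (SE 0.52) with overlap.

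CD47, the surface protein that restrains phagocytosis, was at 11.21 to 11.51 in low RFI pigs and 10.73 to 11.07 in high RFI pigs, a difference of 0.44 (SE 0.11). Other probe sets of CD47 differed by 0.13 and 0.24. PLAU, the urokinase plasminogen activator, was at 9.80 to 10.51 in low RFI pigs and 9.16 to 9.76 in high RFI pigs (difference 0.52, SE 0.15). IL17B, a cytokine, differed by 0.94 (SE 0.26, lines apart) and by 0.24 on its second probe set. IGFBP6, which binds insulin-like growth factors with preference for IGF2, was at 12.90, 11.57, 11.50, 11.34 and 12.07 in low RFI pigs and 11.38, 11.15, 11.21, 10.91 and 11.23 in high RFI pigs. Only low RFI replicate 4 lay inside the high RFI range (difference 0.70, SE 0.21), and a second probe set of IGFBP6 differed by 0.89. PROCR, the protein C receptor of endothelium, differed by 0.81 (SE 0.25) and PCOLCE2, an enhancer of procollagen processing, by 0.62 (SE 0.19), both with overlap.

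Of the other genes with higher means, ATP1B1, the beta subunit of the sodium pump, was at 10.89, 10.16, 10.01, 10.26 and 9.81 in low RFI pigs and 9.38, 9.36, 9.34, 9.60 and 9.49 in high RFI pigs. The lines were apart by 0.79 (SE 0.17, limma adjusted p = 0.420), and a second probe set differed by 0.51 (SE 0.21). SLC25A37, the mitochondrial iron importer mitoferrin, was at 8.69 to 8.84 in low RFI pigs and 8.21 to 8.44 in high RFI pigs (difference 0.46, SE 0.10), but by 0.07 on another probe set. PGM1, the phosphoglucomutase that links glycogen and glucose 6-phosphate, differed by 0.77 (SE 0.23) and by 0.52 with the muscle marker mean as a covariate. It was the 1 of the 30 genes whose signal went with that mean across the 20 backfat arrays, as 97 of all probe sets did (0.626%). UAP1, which makes UDP-N-acetylglucosamine, differed by 0.36 (SE 0.11), and OAZ1, the antizyme that limits polyamine synthesis, by 0.94 (SE 0.29) but by -0.11 on another probe set. The remaining genes, C14H12orf43, LRRN3 and TSHZ2, differed by 0.62, 0.95 and 0.49, and a second probe set of C14H12orf43 by -0.26.

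**Figure D3:**
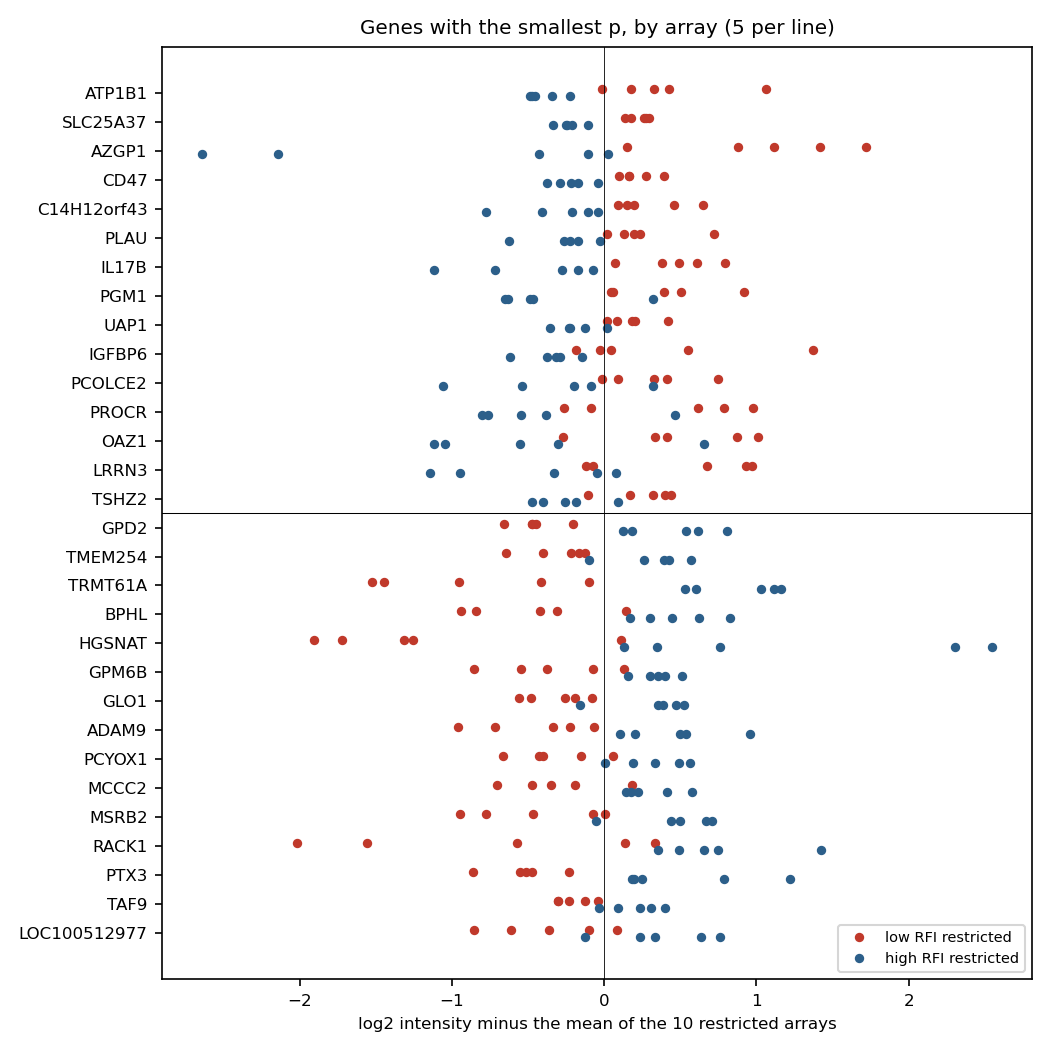
Log2 intensity of the 30 genes with the smallest p, minus each gene's mean over the 10 restricted backfat arrays (x axis), with 1 point per array, low RFI in red above high RFI in blue. Genes above the line were higher and those below it lower in low RFI pigs. The lines did not overlap in 7 of the 15 higher and 10 of the 15 lower genes, which were chosen for small p on these same arrays.

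Most genes of lipid synthesis had lower means in low RFI pigs, and none passed the test. Of 16 fatty acid synthesis genes tested, out of 18 on the array, 15 lay below 0 and 1 above, with a median of -0.35, while 7901 of all 15498 probe sets lay below 0. None of the 16 passed, and 2 had an unadjusted limma p under 0.05, as did 4.82% of all probe sets. FASN, the fatty acid synthase, was at 10.52, 11.53, 11.31, 11.62 and 10.92 in low RFI pigs and 12.04, 11.50, 11.56, 12.87 and 9.69 in high RFI pigs. The lines overlapped, and high RFI pigs held both the highest and the lowest value (difference -0.35, 95% interval -1.14 to 0.43). SCD, the stearoyl-CoA desaturase, was at 12.86, 13.67, 13.07, 11.92 and 11.28 in low RFI pigs and 14.09, 13.63, 13.70, 14.35 and 10.60 in high RFI pigs (difference -0.71, 95% interval -1.77 to 0.34). In both genes high RFI replicate 5 was the lowest of all 10 pigs, and without it the differences were -0.81 for FASN and -1.38 for SCD. The FASN difference was -0.02 without high RFI replicate 4, -0.19 without low RFI replicate 1 and -0.22 without high RFI replicate 1. The SCD difference was -0.39 without low RFI replicate 5 and -0.45 without high RFI replicate 4. ME1, a malic enzyme that supplies NADPH, differed by -0.47 (SE 0.30), ACACA, the acetyl-CoA carboxylase, by -0.37 (SE 0.41), and ELOVL6, a fatty acid elongase, by -0.21 (SE 0.20). SREBF1, a regulator of lipogenesis, and SLC25A1, the citrate carrier, differed by -0.25 and -0.07. The smallest p belonged to IDH1, a cytosolic source of NADPH (difference -0.61, SE 0.17), and MID1IP1, an activator of acetyl-CoA carboxylase (difference -0.65, SE 0.30). IDH1 was at 11.18, 12.19, 11.80, 11.80 and 11.45 in low RFI pigs and 12.06, 12.50, 12.30, 12.67 and 11.93 in high RFI pigs, with only low RFI replicate 2 inside the high RFI range.

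The median of fatty acid synthesis was -0.59 among arrays numbered 1 and 2 and -0.17 among those numbered 3 to 5. It was also -0.17 without low RFI replicate 1, the array with the most muscle signal, and -0.34 with muscle signal as a covariate. In ad libitum pigs, which are different animals, the median was -0.04. Cholesterol synthesis behaved alike in sign, with 10 of 10 genes below 0 and a median of -0.28, against -0.18 in ad libitum pigs. CYP51, a sterol demethylase, differed by -0.56 (SE 0.23) and SQLE, the squalene epoxidase, by -0.57 (SE 0.28). This list's median was -0.17 without low RFI replicate 1. In triglyceride synthesis 11 of 13 genes lay below 0 with a median of -0.09, among them GPD1 at -0.44 and AGPAT3 at -0.24.

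Lists of fat release and of energy use lay near the median of all probe sets. Of 10 lipolysis and lipid droplet genes 5 lay above and 5 below 0 (median -0.04). LIPE, the hormone-sensitive lipase, differed by -0.26 (SE 0.28), MGLL, the monoglyceride lipase, by -0.27 (SE 0.22), and PNPLA3, a lipid droplet hydrolase, by -1.08 (SE 0.54). Oxidative phosphorylation had 37 of 56 genes below 0 with a median of -0.03, and fatty acid oxidation 16 of 25 with a median of -0.07, where DECR1, a dienoyl-CoA reductase, differed by -0.39 (SE 0.16). The TCA cycle list had a median of -0.02, with IDH2 at 0.38 (0.24 with muscle signal as a covariate, 0.17 with muscle and liver signal) and PDHA1, of pyruvate dehydrogenase, at -0.36. In glycolysis and glucose transport 9 of 18 genes lay on each side of 0, and GAPDH differed by 0.45 (SE 0.22) but by 0.28 with muscle signal as a covariate. Among carriers of lipid, 10 of 16 genes lay below 0, with NPC1, which exports cholesterol from lysosomes, at -0.46 (SE 0.16) and LIPA, the lysosomal lipase, at -0.29 (SE 0.13). In amino acid catabolism 13 of 16 genes lay below 0 (median -0.13), led by MCCC2 and IVD, an enzyme of the same leucine pathway (-0.53, SE 0.25). The amino acid median was -0.28 among arrays numbered 1 and 2 and 0.01 among those numbered 3 to 5. For lipid carriers (median -0.12) these values were -0.29 and 0.04.

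The adipose hormone leptin was lower in low RFI pigs without passing the test. LEP was at 7.62, 9.20, 9.13, 8.74 and 10.20 in low RFI pigs and 9.89, 9.44, 11.75, 9.96 and 9.95 in high RFI pigs. Of the low RFI pigs only replicate 5 reached the high RFI range (difference -1.22, SE 0.57, limma unadjusted p = 0.0458, adjusted p = 0.998). In ad libitum pigs the difference was -1.51. CFD, the adipsin gene, differed by 0.25 (SE 0.14) and PPARG, the regulator of adipocyte differentiation, by -0.23 (SE 0.19). Of 15 adipocyte regulators 10 lay below 0 (median -0.11). Their median was -0.18 among arrays numbered 1 and 2 and 0.01 among those numbered 3 to 5. In the insulin and IGF list 10 of 16 genes lay above 0, with INSR, the insulin receptor, at 0.56 (SE 0.32), and that list's median of 0.11 was -0.002 without low RFI replicate 5.

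Stress and early response genes were mixed. EGR1, an early response transcription factor named here after its values were seen, was at 12.60, 12.63, 12.11, 9.96 and 11.74 in low RFI pigs and 13.48, 12.47, 13.46, 13.05 and 13.45 in high RFI pigs. High RFI replicate 2 alone lay inside the low RFI range (difference -1.37, SE 0.39, limma adjusted p = 0.702). Without low RFI replicate 4, the lowest of the 10, the EGR1 difference was -0.91. HSPA2, a heat shock protein, differed by -1.47 (SE 0.68) and DNAJB4 by -0.55 (SE 0.18), within a heat shock list in which 15 of 20 genes lay below 0. That list's median of -0.13 was 0.04 among arrays numbered 1 and 2 and -0.25 among those numbered 3 to 5. CDKN1A, an inhibitor of the cell cycle, differed by -0.62 (SE 0.26) and DUSP1, a phosphatase induced by glucocorticoids, by -0.55 (SE 0.28). Without low RFI replicate 4, the lowest of the 10 at 11.18, the DUSP1 difference was -0.21. By contrast, 8 of 13 glucocorticoid-responsive genes lay above 0. Of 20 ER chaperones 10 lay on each side of 0, with HSP90B1 at 0.18 and CALR at -0.54. In the circadian list 5 of 6 genes lay above 0, among them BHLHE40 at 0.55 and DBP at 0.26. UBE2C, a ubiquitin-conjugating enzyme of mitosis, differed by 1.34 (SE 0.48), and 11 of 16 cell cycle genes lay above 0. The cell cycle median of 0.11 was 0.008 without low RFI replicate 5. It was 0.05 with muscle signal as a covariate and -0.002 with muscle and liver signal.

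Lists of large protein complexes had small medians with most members on the same side of 0. Of 58 ribosomal protein genes 57 lay above 0 with a median of 0.11, which was 0.02 after quantile normalization, and RPS16 and RPL13 differed by 0.22 and 0.25. Of 32 proteasome genes 28 lay below 0 with a median of -0.12, and this was -0.24 among arrays numbered 1 and 2 and -0.04 among those numbered 3 to 5. PSMA5, a core subunit, was at 9.65 to 9.86 in low RFI pigs and 9.86 to 10.35 in high RFI pigs, just without overlap (difference -0.35, SE 0.15), while PSMD10, a regulatory chaperone, differed by 0.35 (SE 0.15). In antioxidant and redox genes 19 of 27 lay below 0, with PRDX3, a mitochondrial peroxiredoxin, at -0.33 (SE 0.13) and GCLM, of glutathione synthesis, at -0.48 (SE 0.18). The redox median of -0.12 was -0.23 among arrays numbered 1 and 2 and 0.01 among those numbered 3 to 5. Among xenobiotic enzymes 12 of 17 lay below 0. Their median of -0.06 was -0.25 among arrays numbered 1 and 2 and 0.02 among those numbered 3 to 5. CYP2A19 was at 10.44, 10.63, 11.51, 11.65 and 11.02 in low RFI pigs and 11.40, 11.64, 12.65, 12.91 and 12.73 in high RFI pigs (difference -1.22, SE 0.37). PON3, a lactonase, was at 11.48, 12.05, 11.71, 11.61 and 10.29 in low RFI pigs and 12.64, 12.93, 12.04, 12.36 and 11.88 in high RFI pigs (difference -0.94, SE 0.29). In both genes the lines overlapped at their edges, and the ad libitum differences were -1.16 and -0.88.

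Immune lists leaned in different directions. Of 12 MHC class II presentation genes 9 lay below 0 (median -0.18). SLA-DOA was at 6.12 to 7.29 in low RFI pigs and 7.43 to 7.77 in high RFI pigs (difference -0.65, SE 0.26), while SLA-DRB1 differed by 0.56 (SE 0.26). Both had the opposite sign in ad libitum pigs, at 0.86 for SLA-DOA and -0.30 for SLA-DRB1. The restricted minus ad libitum contrast of the SLA-DOA line difference was -1.51 (SE 0.37) and did not pass the adjusted threshold. SLA-3, a class I gene, was at 11.05, 11.21, 13.40, 9.37 and 9.50 in low RFI pigs and 12.17, 12.57, 13.26, 13.12 and 11.89 in high RFI pigs. Low RFI replicate 3 was the highest of all 10 and the other 4 low RFI pigs were the lowest, which gave a difference of -1.70 (SE 0.51, limma adjusted p = 0.762) and, without that replicate, -2.32 (limma adjusted p = 0.0446). These MHC genes are polymorphic with near-identical copies, and whether alleles bind the probes equally was not tested. Interferon-stimulated genes split 10 to 10 around 0, with IRF1 at -0.23 and MX1 at 0.40, and their median was -0.36 among arrays numbered 1 and 2 and 0.23 among those numbered 3 to 5. Of 21 cytokine genes 11 lay above 0, with CCL4 at -0.56 (SE 0.24) and CXCL2 at -0.38 (SE 0.32). Of 9 innate receptor genes 6 lay above 0. TLR4, the receptor for bacterial lipopolysaccharide, was at 9.34 to 9.64 in low RFI pigs and 8.78 to 9.36 in high RFI pigs (difference 0.43, SE 0.15), and MYD88, its adaptor, differed by -0.28.

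Most complement and plasma protein genes had higher means in low RFI pigs, and low RFI replicate 5, the array with liver signal, was the highest in several. C3, the central complement protein, was at 9.87, 8.74, 10.48, 9.19 and 13.02 in low RFI pigs and 8.37, 7.64, 9.48, 8.79 and 8.11 in high RFI pigs (difference 1.78, SE 0.59). Replicate 5 of the low RFI pigs stood highest, and without it the C3 difference was 1.09. With muscle and liver signal as covariates it was 1.23. Of 19 complement genes 17 lay above 0 with a median of 0.23, and without low RFI replicate 5 the median was 0.10. It was -0.002 among arrays numbered 1 and 2 and 0.42 among those numbered 3 to 5. CD59, which blocks complement lysis, differed by -0.30 (SE 0.13). All 10 acute phase and plasma protein genes that passed the filter, of 17 on the array, lay above 0, with a median of 0.62. That median was 0.12 without low RFI replicate 5 and -0.04 among arrays numbered 1 and 2. HPX, hemopexin, was at 11.77 in low RFI replicate 5, against 6.35 to 7.01 in the other low RFI pigs and 4.90 to 7.48 in high RFI pigs. ITIH3, a plasma protease inhibitor chain that stabilises hyaluronan, differed by 0.64 (SE 0.37).

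Extracellular matrix genes were mostly above 0, matrix remodelling genes were split, and vascular markers were mostly below. Of 27 extracellular matrix genes 20 lay above 0 (median 0.14). FBN1, fibrillin, was at 12.83 to 14.15 in low RFI pigs and 12.66 to 13.00 in high RFI pigs (difference 0.48, SE 0.19), and LAMB1, a laminin chain, differed by -0.38 (SE 0.19). TIMP1, an inhibitor of matrix proteases, differed by 0.56 (SE 0.21), with low RFI replicate 1 highest at 10.34. The extracellular matrix list's median was 0.38 among arrays numbered 1 and 2 and -0.04 among those numbered 3 to 5. Of 21 matrix remodelling genes 10 lay above and 11 below 0 (median -0.02). Of 25 lysosome genes 14 lay above 0, with the proton pump subunit ATP6V1A at -0.38 (SE 0.16). Among cell type markers, 12 of 14 endothelial genes lay below 0 (median -0.15, TEK at -0.37, LYVE1 at 0.53). Macrophage markers split 7 above and 9 below 0, with SLC11A1 at -0.76 (SE 0.34) and GPNMB at -0.38. Of 10 lymphocyte markers 6 lay below 0, with CD8A at -0.71 (SE 0.29) and CD247 at -0.34. Fibroblast markers had 6 of 10 above 0, with DCN at 0.20 and DPP4 at -0.58, and smooth muscle markers had 6 of 10 below, with ACTA2 at -0.52 and MCAM at -0.25. Of 31 muscle markers 29 lay above 0 with a median of 2.08, and 0.08 with the muscle mean as a covariate. TNNI1 lay at 3.01 and CA3 at -0.66, or -0.72 with that covariate. CA3 was also bright where the muscle mean was low, at 13.35, 12.75 and 12.66 in high RFI replicates 2, 3 and 5. The 7 hepatocyte markers that passed the filter, of 24 on the array, lay above 0 (median 0.40, AHSG at 0.60, RBP4 at 0.32), and their median was -0.56 without low RFI replicate 5. The erythroid (ALAS2 at 0.51, HBM at 0.18), mast cell (KIT at -0.39, MS4A2 at 0.36) and nerve (GAP43 at 0.73, S100B at -0.16) lists had 2 or 3 genes tested each. The skin list had 3, with KRT8 at -0.42, KRT10 at -0.13 and CDH1 at 0.435 (SE 0.63). KRT8 and CDH1 were highest in low RFI replicate 5, the array with liver signal, at 8.95 and 7.75.

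**Figure D4:**
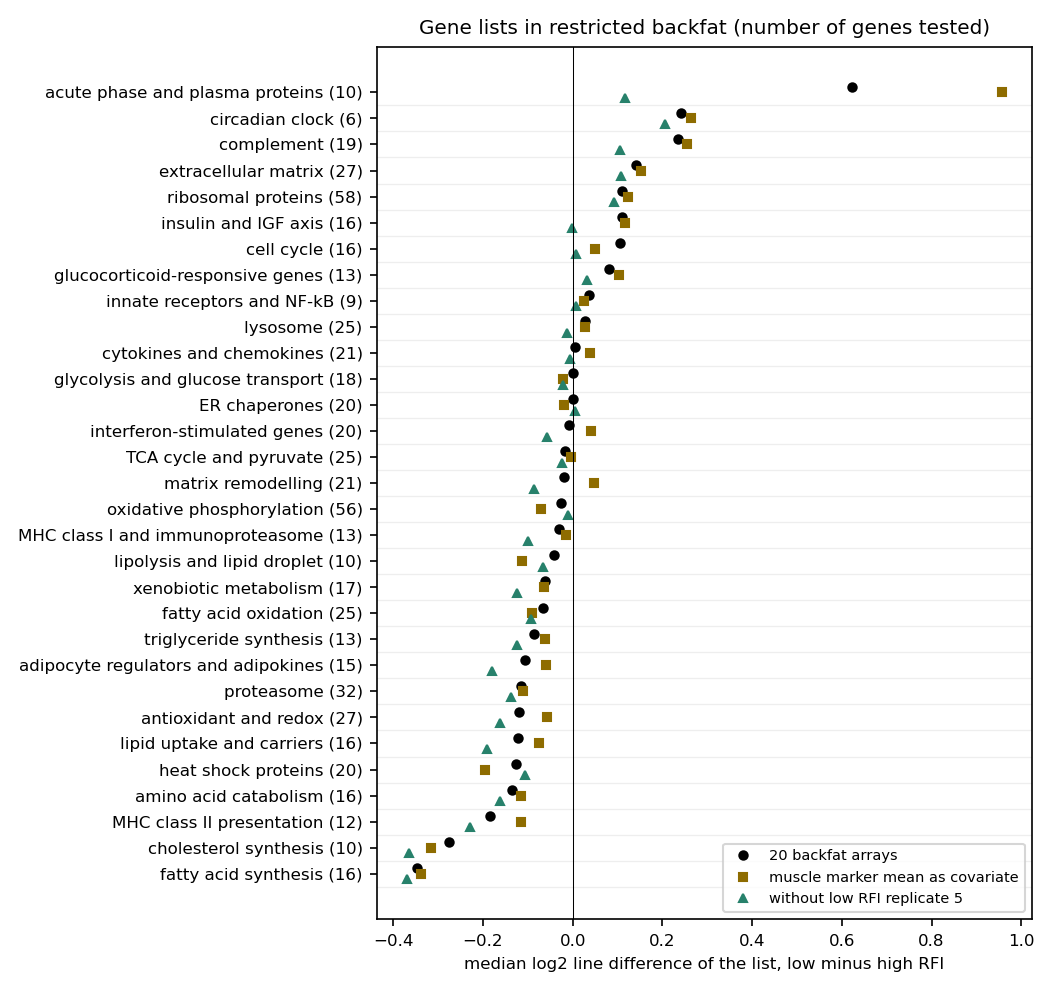
Median log2 line difference (low minus high RFI, x axis) of each gene list in restricted backfat, with the number of genes tested in brackets. Circles are the fit over all 20 backfat arrays, squares add the muscle marker mean as a covariate and triangles leave out low RFI replicate 5. Fatty acid synthesis is lowest at -0.35, and the acute phase list at 0.62 lies at 0.12 without that replicate.

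The ad libitum pigs of the same lines give values from other animals. In ad libitum backfat 2 probe sets passed an adjusted p of 0.05 (0.0129%) and 591 had an unadjusted limma p under 0.05 (3.81%). TMEM254 passed there at -0.86 (SE 0.13, limma adjusted p = 0.0222), against -0.62 in restricted backfat. The ad libitum count was 0 with the muscle mean as a covariate, and also without low RFI ad libitum replicate 1 or 5 or high RFI ad libitum replicate 2, 4 or 5. It was 1 without low RFI ad libitum replicate 2. Over all 15498 probe sets the restricted and ad libitum differences shared their sign in 61.6%, and over the 747 with an unadjusted p under 0.05 in restricted backfat in 78.7%. With the muscle mean as a covariate in both contrasts the share over all probe sets was 62.7%. Of the 30 named genes 25 had the same sign in ad libitum pigs, and 8 had an unadjusted limma p under 0.05 there in that direction. The same held for 3.04% of all probe sets and for 14.7% of the 747. Both contrasts share an estimate of the spread of each probe set. A gene chosen for small p in restricted pigs therefore tends to have a smaller p in ad libitum pigs too. These 8 were TMEM254, CD47 (0.32), ATP1B1 (0.39), PGM1 (0.64), GPD2 (-0.36), GPM6B (-0.53), MSRB2 (-0.57) and RACK1 (-1.23, on its dim probe set). The median of the muscle markers was above 0 in ad libitum pigs too, at 2.24.

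The difference of the line effect between diets was tested directly. No probe set passed (0 of 15498, 0% called, smallest adjusted p 0.514 by limma), and 244 had an unadjusted p under 0.05 (1.57%). The restricted difference is part of this contrast, so a gene chosen for its size under restriction tends to be large here too. SLC25A37 differed by 0.46 in restricted and 0.01 in ad libitum pigs, PLAU by 0.52 and -0.09, TRMT61A by -1.78 and 0.15, and BPHL by -0.95 and -0.04. For none of these genes was the change with diet past the threshold.

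In restricted liver 3 probe sets passed (0.0191% of 15677), and 750 had an unadjusted limma p under 0.05 (4.78%). PON3 passed there at -3.45 (SE 0.50) and HGSNAT, on the probe set named above, at -2.70 (SE 0.46, limma adjusted p = 0.0443). Of all 14001 probe sets tested in both tissues 50.2% had the same sign, and of the 648 of them at an unadjusted p under 0.05 in restricted backfat 57.7%. Of the 26 named genes that were tested in liver 18 had the same sign. Of these, HGSNAT, IGFBP6 (0.91) and BPHL (-0.66), 3 in number, had an unadjusted limma p under 0.05 in that direction. The same held for 2.67% of all probe sets tested in both tissues and for 7.87% of the 648. Whether the liver and backfat arrays of the same number come from the same pig is not stated in the labels, so tissues were not compared by pig.

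**Figure D5:**
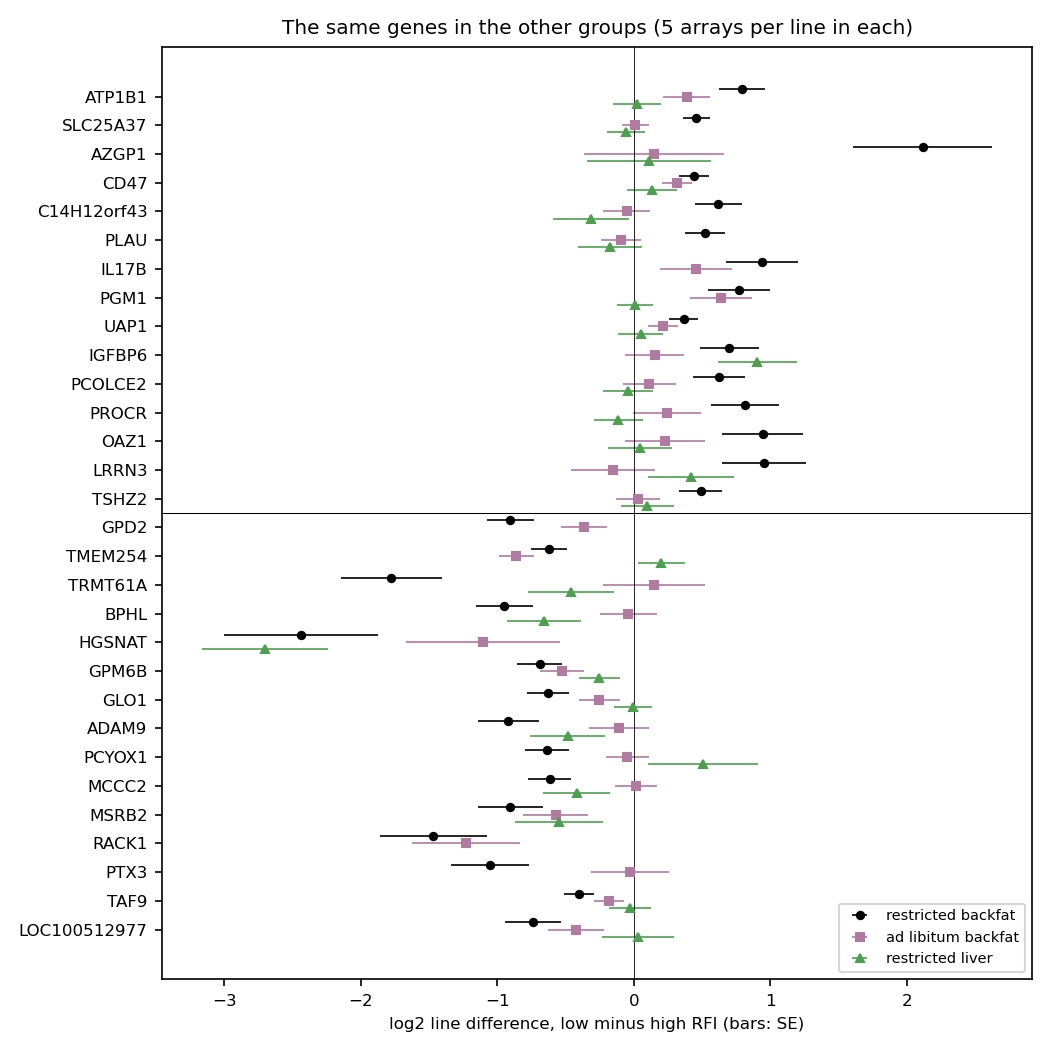
Log2 line difference (x axis, low minus high RFI, bars SE) of the 30 named genes in restricted backfat (circles), ad libitum backfat (squares) and restricted liver (triangles), with 5 arrays per line in each. HGSNAT lies below 0 in all 3 groups, at -2.44, -1.11 and -2.70, and 4 genes without a triangle were below the filter in liver.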

How the data were processed

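Gene expression was measured on 40 single-colour Affymetrix porcine arrays, of which the 10 of restricted backfat are compared here. The authors deposited an intensity for each probe set on a linear scale, and the tools affy and MAS5 are named without a version or role, per the submitters' processing notes. The 2% trimmed mean was 500.09 to 500.097 on the 10 arrays, so no further scaling was applied. Values were log2-transformed without an offset, and 124 controls of 24123 probe sets were left out. A probe set was tested when above the 40th percentile of its array on at least 5 of the 20 backfat arrays. A group-means model over these 20 arrays was fitted with limma 3.58.1 (lmFit, eBayes with intensity trend) in R 4.3.3, with Benjamini-Hochberg adjustment over all probe sets tested and a threshold of 0.05. Array measures were compared by exact permutation over 252 arrangements (two-sided, smallest p 0.00794). Tables and plots used Python 3.11.15, numpy 2.4.6, pandas 2.3.3 and matplotlib 3.10.9, and the limma fit was tested on simulated data.

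GEO's platform annotation gave exactly 1 symbol to 10069 probe sets (6765 symbols) and several to 198, while 13732 are unnamed here, and 9961 of those named matched RefSeq by gene ID. Each list gene is represented by its brightest probe set in backfat. Genes were named as the 15 with the smallest p in each direction (muscle and hepatocyte markers left out), the 2 with the smallest p of each list, and the brightest markers. FASN, ACACA, SCD, ELOVL6, ME1, SLC25A1, SREBF1, PPARG and LIPE were added for their roles and EGR1 for its values. The comparison, lists and genes were chosen with earlier results of these data known. The labels do not say what a replicate number stands for. The correlation of same-numbered restricted backfat arrays was 0.329, 0.0867, 0.180, 0.229 and 0.296, not all above 0.1, so the numbers were not taken to pair the pigs. p-values measure the spread between these arrays. Alternatives were quantile normalization, no or a stricter filter, an offset, no intensity trend, array weights, the 10 arrays alone, the replicate number as a block, array sets, marker means as covariates, and each array left out. The covariates together with the array set, and the list medians within array sets, were added after seeing the data.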

Additional observations from a re-analysis of the deposited data

Results flagged for a closer look

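Single arrays stood far from the other 4 of their line in 23 of 274 groups of 5 examined, measured as the gap to the nearest array over the whole range, where chance gives about 1 in 20. Low RFI replicate 5 was highest for the hepatocyte marker mean (13.13, next 9.11), HPX (11.77, next 7.01), AHSG (11.45, next 7.24) and SLC11A1 (7.90, next 6.18). Low RFI replicate 1, the array with the most muscle signal, was lowest for the adipocyte marker mean (11.89, next 12.55), SLC25A1 (10.14, next 11.00) and SREBF1 (5.33, next 7.13) and highest for DCN (14.60, next 14.26). Low RFI replicate 2 was highest for the 3' to 5' actin log2 ratio (3.44, next 1.79), CYP51 (10.76, next 9.76) and KRT10 (9.03, next 8.67) and lowest for ADIPOQ (14.21, next 14.65). Low RFI replicate 3 was highest for CALR (9.95, next 8.86) and lowest for SLA-DOA (6.12, next 7.01).

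Among high RFI pigs, replicate 5 was lowest for SCD (10.60, next 13.63), MID1IP1 (9.25, next 10.18) and GLO1 (9.44, next 9.96) and highest for IVD (11.32, next 10.28). Replicate 4, which carried muscle signal, was highest for PGM1 (11.83, next 11.05) and IDH2 (10.11, next 9.76). Replicate 3 was highest for LEP (11.75, next 9.96) and DBP (10.28, next 9.46), and replicate 1 was lowest for MYD88 (8.37, next 8.63).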

How the results depend on the processing

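The count of 0 probe sets past the threshold in restricted backfat held under 22 of 24 alternatives. It was 1 with muscle and hepatocyte marker means as covariates (TRMT61A, -2.10, limma adjusted p = 0.0422), and 0 to 1 with each array left out, where the 1 was SLA-3 (-2.32, adjusted p = 0.0446) without low RFI replicate 3. The 747 probe sets at an unadjusted p under 0.05 became 1173 with no filter, which tests more probe sets. With the replicate block the count stayed 0, with 1060 at an unadjusted p under 0.05, and 4 of 5 arrays correlated best with their own number. The diet by line count was 1 among arrays numbered 3 to 5. For ad libitum backfat (2) it was 1 with the replicate block, 1 among arrays numbered 1 and 2, 0 with the muscle covariate and 0 to 3 with each array left out. For restricted liver (3) it was 6 with the replicate block, 5 with the array set as a term, 1 among arrays numbered 3 to 5 and 0 to 4 with each array left out. The cause was not tested.

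The 30 genes with the smallest p kept their sign in all 715 values computed, and the TRMT61A value above was the 1 past the threshold. These genes were chosen for small p on the same arrays. Their sign had little room to change, so the kept signs are no support for them. Among 92 other genes 30 of 2194 values changed sign. Within numbers 1 and 2 these were INSR -0.0029, CFD -0.0020, DUSP1 0.085, CA3 0.12, AHSG -0.066, S100B 0.11, LPL -0.072 and ALB -0.071, and within numbers 3 to 5 HSP90B1 -0.027, SREBF1 0.095, ADIPOQ 0.0099 and PPARG 0.12. Quantile normalization gave LPL -0.013 and FABP4 -0.056. Both marker covariates gave ALB -0.42, and with the array set as a term ALB -0.37 and ADIPOQ 0.011. With each array left out, AHSG ranged between -0.29 and 0.95, SLC25A1 between -0.18 and 0.12, SREBF1 between -0.45 and 0.15, LPL between -0.073 and 0.11, FABP4 between -0.011 and 0.099, LIPE between -0.44 and 0.064 and ALB between -1.07 and 1.15.

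With each array left out, the line difference of the array measures ranged between -0.15 and 0.35 for the actin ratio, -0.34 and 0.11 for the GAPDH ratio, -0.55 and 0.79 for hepatocyte, -0.23 and 0.098 for macrophage, -0.14 and 0.016 for lymphocyte, -0.24 and 0.0061 for endothelial, -0.14 and 0.18 for smooth muscle, -0.033 and 0.091 for fibroblast, -0.19 and 0.15 for mast cell and -0.33 and 0.14 for skin markers. The number of arrays limits all of these values.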
